A study of Homo sapiens with 6 samples.

Results

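Heat shock proteins are molecular chaperones that bind unfolded or aggregating proteins and help them to fold, disassemble or be degraded. HSP70 works in a cycle with J-domain proteins, which deliver clients, and with nucleotide exchange factors of the HSP110 and BAG families, which release them. HSP90 matures kinases and steroid receptors with a set of co-chaperones, small heat shock proteins hold unfolded clients without using ATP, and the ring-shaped chaperonin folds actin and tubulin. Heat shock factor 1 drives the stress-inducible members through heat shock elements, which are alternating copies of GAA and TTC in the promoter. In heart muscle, CRYAB, HSPB8 and BAG3 are known for protecting the contractile apparatus.

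The genes described here are 37 members of these families, taken by symbol from a table of 58299 Ensembl genes, and all 37 were found and tested. Besides cytosolic chaperones they include 3 chaperones of the mitochondrial matrix, HSPA9, HSPD1 and HSPE1, and the transcription factors HSF1 and HSF2. They were measured by RNA sequencing of polyadenylated RNA in AC16, a human cardiomyocyte line made by fusing ventricular muscle cells with SV40-transformed fibroblasts. The 3 treated libraries came from AC16 cells given 100 nM CDDO-Me for 24 h and then 100 nM doxorubicin for 48 h. The 3 control libraries came from AC16 cells kept in 0.1% DMSO for 72 h, the same total time. CDDO-Me is a triterpenoid activator of the transcription factor NRF2, and doxorubicin is an anthracycline that poisons topoisomerase II. The series' title names NRF2 activation and protection from doxorubicin toxicity, and the labels define the single comparison of combined treatment with DMSO. Cells given only CDDO-Me or only doxorubicin were not analysed here, so a change cannot be assigned to either drug. Whether CDDO-Me was removed before doxorubicin is not stated in the labels.

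The treated libraries held 19732013 to 20193957 counts in genes and the DMSO libraries 17150259 to 19387496. Treated and DMSO libraries separated on the first principal component (85.9% of the variance). The treatment markers CDKN1A, the p53-induced inhibitor p21, and HMOX1, the NRF2-induced heme oxygenase, had log2 changes of 4.30 and 4.33. Of 11 cardiomyocyte markers only TTN was abundant enough to test, TNNI3 had 0 counts in all libraries, and TNNT2, cardiac troponin T, had 0 to 4 counts per library. The 8 fibroblast markers summed to 7326 to 7737 CPM (counts scaled to a common library size) in treated libraries and 16050 to 17430 CPM in DMSO libraries, and 7 of them fell. Summed smooth muscle markers (5 genes) were at 122 to 127 CPM in treated libraries and 257 to 281 CPM in DMSO libraries, endothelial markers (5) at 11.4 to 12.1 and 21.6 to 24.4 CPM, and leukocyte markers (4) at 4.91 to 5.66 and 2.0 to 3.08 CPM, treated before DMSO. The members of these lists did not all move with their sum. Of the smooth muscle markers ACTA2 and MYH11 rose (log2 changes of 2.81 and 1.94) while TAGLN (-2.40), CNN1 and DES fell. Of the endothelial markers PECAM1 and KDR rose (1.96 and 0.77) and TEK (-1.56) fell, and of the leukocyte markers PTPRC rose (1.78). The part of these shifts in the results below was not tested. The labels do not state that the libraries of a group came from separate cultures, and p-values then cover only library-to-library spread, possibly technical. All libraries came from the AC16 line, and in such bulk samples fewer cells expressing a gene and less of its RNA per cell cannot be told apart.

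Heat shock elements were looked for in the promoter windows that RefSeq gives for 33 of the 37 genes (50 windows of 300 bases, 250 before to 50 after a start, GRCh38.p14; CCT6A, HSF1, FKBP4 and CRYAB had none). The 3-unit element, GAANNTTCNNGAA or TTCNNGAANNTTC on the other strand, was in 7 of the 50 windows (14%) and in 0.49% of all 35116 windows in the table. The 7 genes were HSPA6, CHORDC1, DNAJA1, HSP90AA1, HSP90AB1, HSPA8 and HSPD1. The sites are shown, 5′ to 3′ on the gene's strand with matching bases in capitals, because genes that carry this element rose, fell or were not called.

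HSPA6: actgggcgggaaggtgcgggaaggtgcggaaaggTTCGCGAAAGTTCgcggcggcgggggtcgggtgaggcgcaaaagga
CHORDC1: accgGAAAATTCGCGAAGGTTCCTGAAacg
DNAJA1: cgccgggcgGAACTTTCCAGAAcgctcggt
HSP90AA1: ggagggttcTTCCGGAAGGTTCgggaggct
HSP90AB1: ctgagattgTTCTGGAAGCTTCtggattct
HSPA8: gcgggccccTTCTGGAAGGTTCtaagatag
HSPD1: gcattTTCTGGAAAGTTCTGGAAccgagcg

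The HSPA6 stretch is chr1:161524432-161524511, plus strand, with the element 74 to 62 bases before the start. CHORDC1 (chr11:90223084-90223113, minus strand) had 3 overlapping matches in 1 run, 60 to 38 bases before the start. HSP90AA1 is shown at chr14:102087112-102087141 and HSPA8 at chr11:123062171-123062200, both minus strand, and HSP90AB1 at chr6:44247822-44247851, plus strand. HSPD1 (chr2:197500061-197500090, minus strand) had 2 overlapping matches far upstream. That stretch lies within the span of its neighbour HSPE1 (chr2:197499994-197503457, plus strand), so the element is not particular to HSPD1. DNAJA1 (chr9:33025267-33025296, plus strand) had its match just after the start. HSPA8 held a second 3-unit match further upstream, at bases 230 to 218 before the start, and HSP90AB1 one at bases 165 to 153.

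The shorter unit GAANNTTC, which lies within every 3-unit match and reads the same on both strands, was in 16 of the 50 windows (32%) and in 6.77% of all windows. Apart from genes with a 3-unit match it was found in HSPA1A, HSPA1B, HSPB8, DNAJA4 and DNAJB1, which rose, in HSPB1 and CCT2, which fell, and in TCP1, which was not called. The opposite arrangement TTCNNGAA was in 12 of the 50 windows (24%) and in 7.74% of all windows. Beyond the genes with a 3-unit match, these were windows of HSPA4L and HSPA9, which rose, CCT4 and STIP1, which fell, and DNAJB4, which was not called. Only the matches of HSPA1A, HSPA1B and HSPB8 are shown, all of them genes that rose. Those of DNAJA4 and DNAJB1, which also rose, of HSPB1 and CCT2, which fell, and of TCP1 are not shown. The copies in HSPA1A and HSPA1B lie in promoter windows that were 92.5% identical over 294 aligned bases.

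HSPA1A: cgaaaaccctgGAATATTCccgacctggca
HSPA1B: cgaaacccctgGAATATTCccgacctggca
HSPB8: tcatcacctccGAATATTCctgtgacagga

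These are chr6:31815426-31815455, chr6:31827622-31827651 and chr12:119178832-119178861, all on the plus strand. The core of the antioxidant response element bound by NRF2, TGACNNNGC or GCNNNGTCA, was in 8 of the 50 windows (16%) and in 13.3% of all windows. Its 7 genes were AHSA1, CCT4, HSP90AB1, HSPA4L, HSPA6, HSPB1 and PTGES3. A match describes the letters of a window and shows no binding.

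HSPA6, HSPB8, HSPA4L and DNAJA4 rose the most, HSPA2 fell the most, and 5 of the 8 chaperonin subunit genes fell. Of the 4 genes with the highest level per kb of exon, HSP90AB1, HSPA8 and HSPB1 fell by less than 0.3 on the log2 scale and HSP90AA1 was not called. Of the 37 genes, 16 rose and 13 fell (edgeR's quasi-likelihood test, Benjamini-Hochberg adjusted p below 0.05 over 15575 tested genes), and 8 were not called. The called share was 78.4%, against 63.5% of all tested genes, of which 32.3% rose and 31.2% fell. These shares are not matched for level. Of tested genes above 400 CPM in DMSO libraries, where 13 of the 37 lie, 14.2% rose and 71.6% fell. Below 100 CPM, where 12 of the 37 lie, 34.6% rose and 25.6% fell. Only 4 of the 37, HSPA6, HSPB8, HSPA4L and DNAJA4, changed at least 2-fold, against 15.5% of all tested genes. In hg38, as the table places them, these genes are HSPA6 (ENSG00000173110, chr1:161524540-161526910, plus strand), HSPB8 (ENSG00000152137, chr12:119178642-119221131, plus strand), HSPA4L (ENSG00000164070, chr4:127781821-127840733, plus strand) and DNAJA4 (ENSG00000140403, chr15:78264086-78282196, plus strand). The groups did not overlap in 30 of the 37 genes, against 66.7% of tested genes. The median log2 change was -0.03 for the 37 and 0.02 for all tested genes. Tested against a 1.5-fold change with glmTreat, 4 genes rose and 1, HSPA2, fell, against 19.2% of tested genes called. Log2 changes are treated minus DMSO with their standard error (SE), and levels are CPM normalised by trimmed means of M values (TMM).

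**Figure D1:**
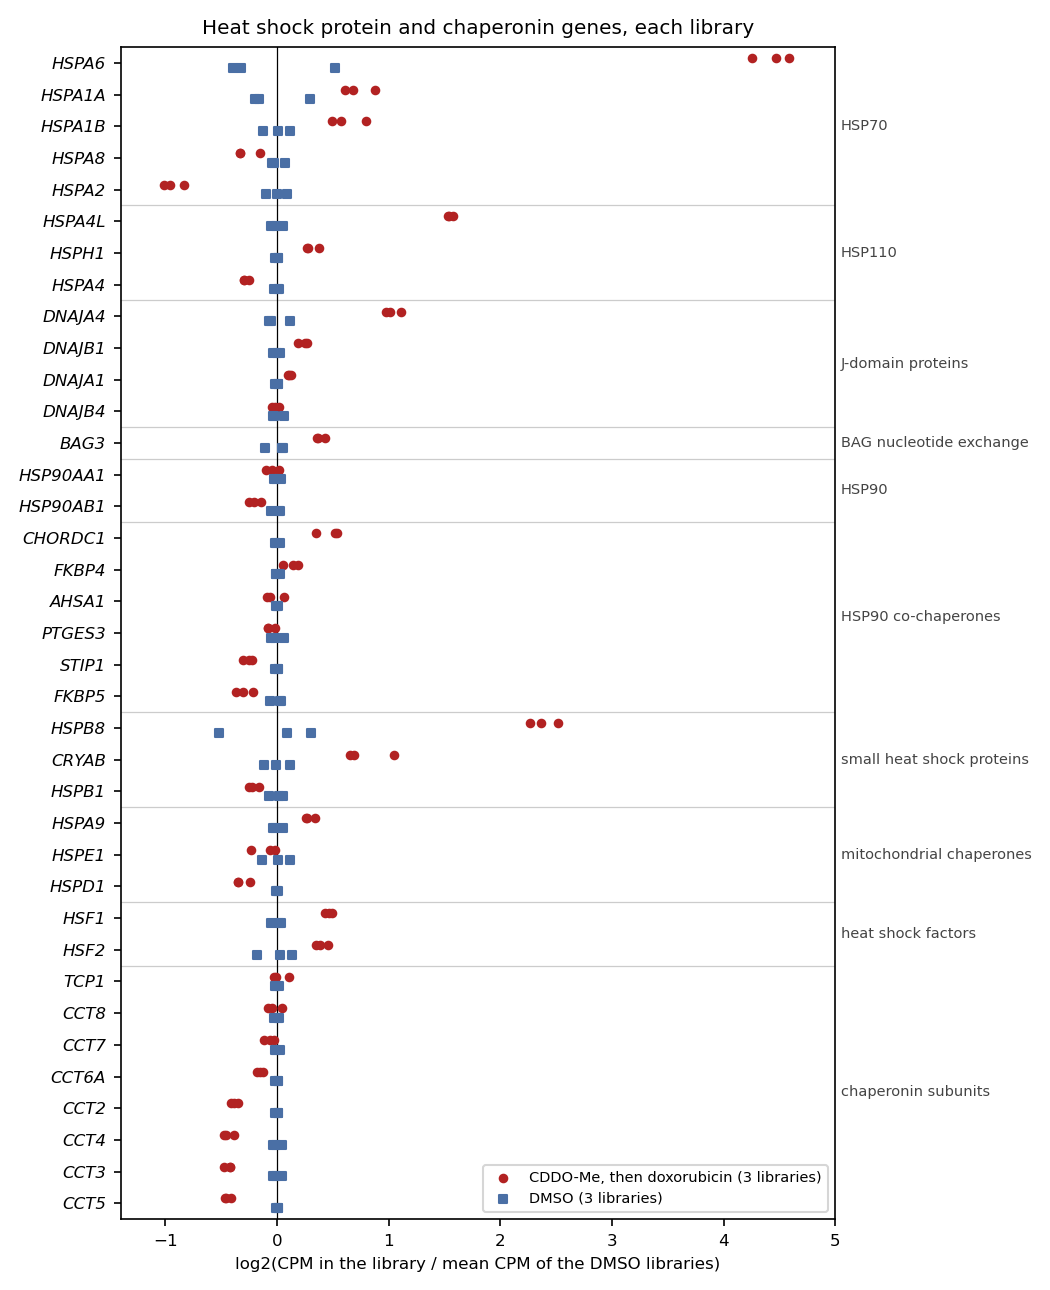
Each point is 1 library: log2 of its CPM over the mean CPM of the DMSO libraries (x axis) for each of the 37 genes, grouped by role; red circles are the 3 treated and blue squares the 3 DMSO libraries. HSPA6, HSPB8, HSPA4L and DNAJA4 stand furthest to the right, with log2 changes of 4.39, 2.37, 1.55 and 1.04, and HSPA2 furthest to the left at -0.93.

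Among the HSP70 genes, 3 rose and 2 fell, where 32.3% of all tested genes rose and 31.2% fell. HSPA6, a strictly stress-inducible HSP70 (HSP70B'), was at 5.44, 4.33 and 5.00 CPM in treated libraries, against 0.172, 0.181 and 0.325 CPM in DMSO libraries. These values come from 113, 88 and 106 treated counts and 3, 3 and 6 DMSO counts, so the groups were far apart but the size of the fold rests on 12 DMSO counts. Its log2 change was 4.39 (SE 0.33, edgeR adjusted p = 2.65e-18). Its pseudogene HSPA7 shares 45.5% of the 50-base words of HSPA6 transcripts and had 15 counts in all libraries together, against 319 for HSPA6. The handling of multi-mapping reads is unknown here. Where they were discarded, both counts and the share of HSPA6 among the HSP70 genes would be understated.

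HSPA1A and HSPA1B encode near-identical copies of the main inducible HSP70. HSPA1A was at 37.0, 32.1 and 30.6 CPM in treated libraries, against 24.8, 17.5 and 18.0 CPM in DMSO libraries, and HSPA1B at 68.9, 85.2 and 72.6 CPM in treated libraries, against 52.8, 49.1 and 44.7 CPM in DMSO libraries. All treated libraries lay above all DMSO libraries for both genes, and the groups did not overlap, in either direction, for 66.7% of all tested genes. The log2 changes were 0.73 (SE 0.093) for HSPA1A and 0.63 (SE 0.067) for HSPA1B, with edgeR adjusted p of 5.19e-10 and 1.70e-12. Of the 50-base words of HSPA1A transcripts, 71.3% also occur in HSPA1B, so reads could be split between the copies or, where multi-mapping reads were discarded, lost from both. The handling of such reads is unknown here, and reads lost in this way would understate the levels of the pair and its share of the HSP70 genes. Counted as 1 gene they averaged 109 ± 7.47 CPM in treated libraries and 69.0 ± 7.72 CPM in DMSO libraries (SD, n = 3 each), a log2 change of 0.66.

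HSPA8, the constitutive HSC70 and the most abundant HSP70 gene here, was at 1742, 1983 and 1745 CPM in treated libraries, against 2306, 2164 and 2126 CPM in DMSO libraries. The groups did not overlap, although treated replicate 2 lay well above the other treated libraries. It fell by 0.27 on the log2 scale (SE 0.047, edgeR adjusted p = 1.00e-06). HSPA2, an HSP70 best known from the testis, fell to 24.2, 26.4 and 23.4 CPM in treated libraries, against 44.0, 50.2 and 47.0 CPM in DMSO libraries. This log2 change of -0.93 (SE 0.075, edgeR adjusted p = 3.59e-17) was the largest decrease among the 37. Per kilobase of exon, HSPA8 made up 88.3% ± 0.231 of the summed level of the 5 HSP70 genes in treated libraries and 92.7% ± 0.231 in DMSO libraries (SD, n = 3 each). HSPA1A and HSPA1B together made up 10.2% ± 0.143 in treated libraries and 5.61% ± 0.369 in DMSO libraries. HSPA6 stayed a small part of the family, at 0.492% ± 0.0867 in treated libraries and 0.0197% ± 0.00815 in DMSO libraries. These shares use exon lengths of 4849 bases for HSPA8, 2483 for HSPA1A and 2521 for HSPA1B, which join all annotated exons of a gene. A length beyond the expressed HSPA8 transcript would overstate the share of HSPA1A and HSPA1B, so it may be too high or too low.

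The HSP110 genes, relatives of HSP70 that act as its nucleotide exchange factors, moved in both directions. HSPA4L was at 54.3, 55.8 and 53.8 CPM in treated libraries, against 18.6, 18.0 and 19.4 CPM in DMSO libraries, a log2 change of 1.55 (SE 0.075, edgeR adjusted p = 1.76e-27). HSPH1 (HSP105), itself heat-inducible, was at 299, 279 and 278 CPM in treated libraries, against 231, 232 and 228 CPM in DMSO libraries, and rose by 0.31 on the log2 scale (SE 0.047). HSPA4 (APG-2) was at 265, 257 and 256 CPM in treated libraries, against 317, 319 and 309 CPM in DMSO libraries, and fell by 0.28 (SE 0.046). The libraries of the groups did not overlap for any of the 3 genes, which held for 66.7% of all tested genes.

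Of the 4 J-domain genes, 3 rose, where 32.3% of all tested genes rose. DNAJA4 was at 9.78, 9.50 and 10.5 CPM in treated libraries, against 4.59, 5.26 and 4.66 CPM in DMSO libraries, a log2 change of 1.04 (SE 0.14, edgeR adjusted p = 3.24e-09). DNAJB1 (HSP40), the classical heat-inducible partner of HSP70, was at 174, 165 and 172 CPM in treated libraries, against 148, 145 and 141 CPM in DMSO libraries, a log2 change of 0.24 (SE 0.049, edgeR adjusted p = 3.35e-05). The abundant DNAJA1 averaged 451 ± 4.13 CPM in treated libraries and 417 ± 5.15 CPM in DMSO libraries (SD, n = 3 each), a log2 change of 0.11 (edgeR adjusted p = 0.0241). That call was lost when any library except treated replicate 2 was left out (edgeR adjusted p of 0.0585 to 0.0800). DNAJB4 averaged 134 ± 3.27 and 136 ± 5.17 CPM in treated and DMSO libraries and was not called (edgeR adjusted p = 0.793).

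BAG3, which links HSP70 and HSPB8 to autophagic degradation, was at 174, 181 and 173 CPM in treated libraries, against 139, 125 and 139 CPM in DMSO libraries. The lowest treated library was above the highest DMSO library, and BAG3 rose by 0.39 on the log2 scale (SE 0.051, edgeR adjusted p = 1.15e-09).

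The small heat shock protein genes, which include the partner of BAG3, moved in both directions. HSPB8 was at 18.7, 22.3 and 20.01 CPM in treated libraries, against 4.14, 2.72 and 4.82 CPM in DMSO libraries, a log2 change of 2.37 (SE 0.13, edgeR adjusted p = 4.21e-24). CRYAB, alpha-B crystallin, was at 11.3, 14.9 and 11.6 CPM in treated libraries, against 6.66, 7.80 and 7.15 CPM in DMSO libraries, a log2 change of 0.81 (SE 0.13, edgeR adjusted p = 1.48e-07). CRYAB lies head to head with HSPB2, another small heat shock gene, and 20.6% of its exon bases are in exons of other genes. HSPB2 was too low to test, with 2, 0 and 0 counts in treated libraries and 3, 0 and 5 in DMSO libraries. HSPB1 (HSP27), by far the most abundant of the 3, was at 325, 306 and 312 CPM in treated libraries, against 377, 367 and 347 CPM in DMSO libraries. It fell by 0.21 on the log2 scale (edgeR adjusted p = 7.10e-05), a call lost with total-count scaling (-0.08, edgeR adjusted p = 0.104).

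**Figure D2:**
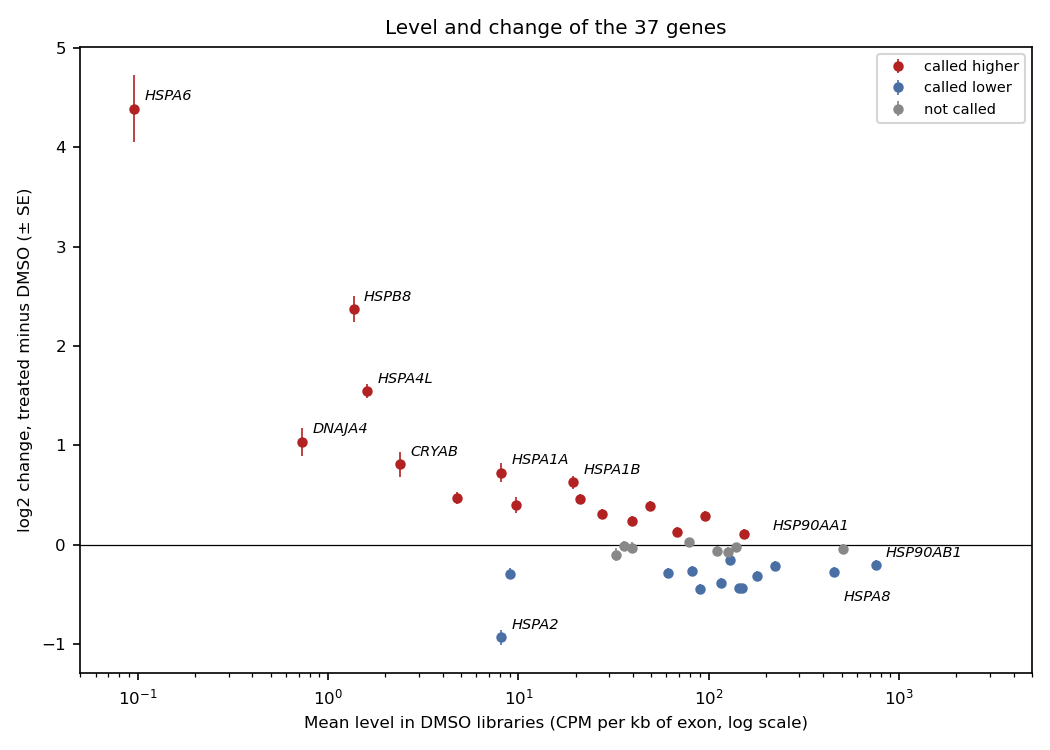
Log2 change with its SE (y axis) against the mean level in DMSO libraries in CPM per kb of exon (x axis, log scale) for the 37 genes, coloured by call. The genes with a change above 1 lie at the low end, and HSP90AB1, HSP90AA1 and HSPA8, the highest at 754, 508 and 453 CPM per kb in DMSO libraries, lie below 0.

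HSP90 was represented by the inducible form HSP90AA1 and the constitutive form HSP90AB1. HSP90AA1 was at 2700, 2497 and 2585 CPM in treated libraries, against 2611, 2737 and 2651 CPM in DMSO libraries, so the groups overlapped and it was not called (log2 change -0.04, edgeR adjusted p = 0.442). HSP90AB1 was at 2033, 1944 and 1885 CPM in treated libraries, against 2297, 2170 and 2277 CPM in DMSO libraries, and fell by 0.20 on the log2 scale (SE 0.044, edgeR adjusted p = 6.41e-05). With total-count scaling HSP90AB1 was not called (-0.07, edgeR adjusted p = 0.117). Per kilobase of exon, HSP90AA1 was 43.0% ± 0.802 of the pair in treated libraries and 40.2% ± 1.31 in DMSO libraries (SD, n = 3 each), and these shares did not overlap between the groups. The exon lengths used were 5248 bases for HSP90AA1 and 2980 for HSP90AB1, and in CPM HSP90AA1 was the higher of the pair.

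The 6 HSP90 co-chaperone genes moved in both directions, with 2 higher, 2 lower and 2 not called. Of all tested genes, 32.3% rose and 31.2% fell. CHORDC1 (morgana) rose to 72.5, 73.4 and 64.1 CPM in treated libraries, against 49.7, 51.5 and 50.1 CPM in DMSO libraries, a log2 change of 0.47 (SE 0.063, edgeR adjusted p = 1.49e-09). FKBP4 (FKBP52), an immunophilin of steroid receptor complexes, had a log2 change of 0.13 (edgeR adjusted p = 0.0117), and was not called without DMSO replicate 2, treated replicate 1 or treated replicate 3 (edgeR adjusted p of 0.0554, 0.0931 and 0.0577). Its relative FKBP5 (FKBP51), also known as a glucocorticoid-induced gene, fell by 0.29 (SE 0.056), with 82.9, 74.7 and 78.0 CPM in treated libraries and 92.4, 97.8 and 98.4 CPM in DMSO libraries. STIP1 (HOP), which passes clients from HSP70 to HSP90, fell by 0.26 (SE 0.046), with 318, 324 and 307 CPM in treated libraries and 381, 375 and 381 CPM in DMSO libraries. AHSA1, an activator of the HSP90 ATPase, and PTGES3 (p23), which holds its closed form, were not called (log2 changes of -0.03 and -0.06, edgeR adjusted p of 0.647 and 0.263).

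The mitochondrial chaperone genes did not move together. HSPA9 (mortalin), the HSP70 of the matrix, was at 576, 547 and 550 CPM in treated libraries, against 450, 445 and 472 CPM in DMSO libraries, and rose by 0.29 (SE 0.045, edgeR adjusted p = 8.96e-08). HSPD1 (HSP60) was at 644, 599 and 597 CPM in treated libraries, against 761, 757 and 767 CPM in DMSO libraries, and fell by 0.31 (SE 0.045, edgeR adjusted p = 1.11e-08). HSPE1 (HSP10), the lid of the HSP60 barrel and its head-to-head neighbour, had overlapping groups, with 63.4, 54.5 and 61.2 CPM in treated libraries and 58.3, 69.3 and 64.6 CPM in DMSO libraries. It was not called (log2 change -0.10, edgeR adjusted p = 0.170), but fell without DMSO replicate 1 (-0.17, edgeR adjusted p = 0.0290). Of HSPE1 exon bases, 23.9% lie in exons of HSPD1 or of the read-through gene HSPE1-MOB4, and the libraries carry no strand information.

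Transcripts of both heat shock factors rose, where 32.3% of all tested genes rose. HSF1, the main activator of the heat shock response, was at 155, 158 and 151 CPM in treated libraries, against 115, 108 and 114 CPM in DMSO libraries, a log2 change of 0.46 (SE 0.051, edgeR adjusted p = 4.41e-12). HSF2, a partner of HSF1, was at 33.4, 34.2 and 35.8 CPM in treated libraries, against 23.1, 28.7 and 26.6 CPM in DMSO libraries, a log2 change of 0.40 (SE 0.080, edgeR adjusted p = 1.65e-05). The groups did not overlap for either gene, which held for 66.7% of all tested genes. HSF1 is regulated mainly as a protein, by release from chaperones, trimer formation and phosphorylation, which RNA counts do not measure.

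The chaperonin (CCT or TRiC) is built of 8 different subunits, each present once in either ring, and transcripts of 5 subunits fell while 3 were not called. In DMSO libraries TCP1 averaged 387 CPM and the other subunits 410 to 599 CPM. Of all tested genes, 57.5% fell at 100 to 400 CPM and 71.6% above 400 CPM. The median log2 change was -0.27 for the 8 subunits and -0.34 for all tested genes above 400 CPM. CCT5 was at 398, 385 and 382 CPM in treated libraries, against 531, 524 and 530 CPM in DMSO libraries. CCT3 was at 448, 447 and 431 CPM in treated libraries, against 594, 617 and 586 CPM in DMSO libraries. CCT4 was at 313, 295 and 299 CPM in treated libraries, against 408, 422 and 399 CPM in DMSO libraries. Each of these 3 subunits had a log2 change of -0.44, with an SE of 0.045 to 0.046, and CCT2 had -0.38 (SE 0.045), with 392, 383 and 375 CPM in treated libraries and 504, 502 and 491 CPM in DMSO libraries. With edgeR, adjusted p was 2.29e-13 for CCT5, the smallest, and 4.33e-11 for CCT2, the largest. For all 4 genes every treated library lay below every DMSO library. Groups did not overlap, in either direction, for 66.7% of all tested genes.

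The other 4 subunits stood closer to their DMSO level. CCT6A was at 462, 447 and 455 CPM in treated libraries, against 500, 508 and 507 CPM in DMSO libraries, and fell by 0.15 (edgeR adjusted p = 0.00242). It was not called with upper-quartile (-0.10, edgeR adjusted p = 0.0502) or total-count scaling (-0.02, edgeR adjusted p = 0.643). CCT7, TCP1 (CCT1) and CCT8 were not called, with log2 changes of -0.07, 0.02 and -0.03 and edgeR adjusted p of 0.176, 0.658 and 0.622. With total-count scaling TCP1 (0.15, edgeR adjusted p = 0.00259) and CCT8 (0.10, edgeR adjusted p = 0.0452) were called higher, while CCT2, CCT3, CCT4 and CCT5 remained lower under every scaling.

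Ratios of subunits within a library do not depend on the scaling. The ratio of CCT5 to CCT8 was 0.836, 0.882 and 0.851 in treated libraries, against 1.17, 1.12 and 1.14 in DMSO libraries. That of CCT3 to TCP1 was 1.08, 1.17 and 1.12 in treated libraries, against 1.54, 1.61 and 1.49 in DMSO libraries. That of CCT2 to CCT7 was 0.879, 0.913 and 0.865 in treated libraries, against 1.12, 1.08 and 1.10 in DMSO libraries. The 3 ratios, chosen after the values were seen, did not overlap between the groups. Of CCT5 exon bases, 30.1% lie in exons of another annotated gene, and 11.8% of the 50-base words of TCP1 transcripts occur in other genes.

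**Figure D3:**
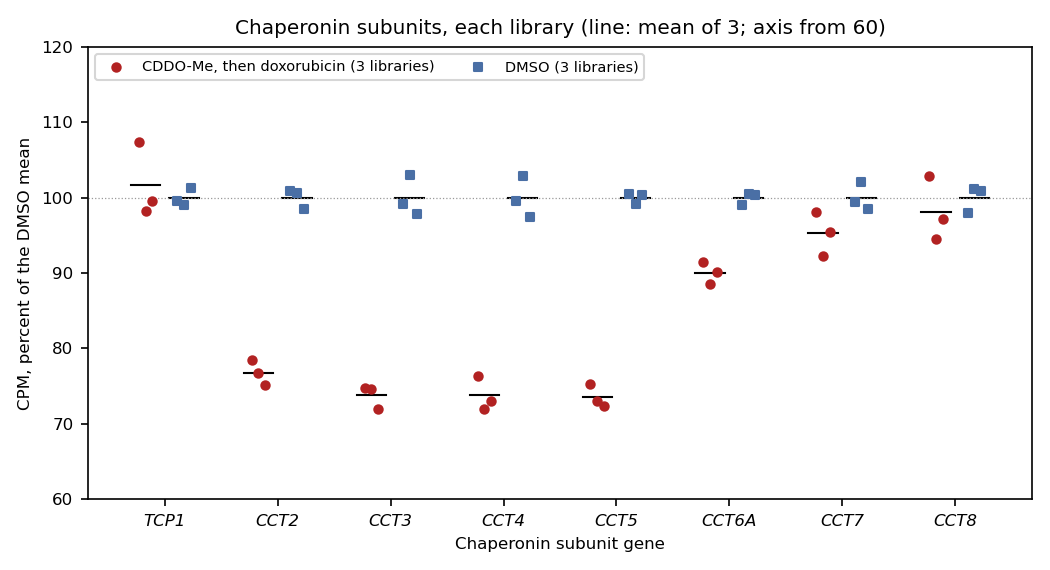
CPM of the 8 chaperonin subunit genes as a percent of the DMSO mean (y axis, from 60) in each treated (red circles, left) and DMSO library (blue squares, right); lines are means of 3. CCT2, CCT3, CCT4 and CCT5 had log2 changes of -0.38 to -0.44, whereas TCP1, CCT7 and CCT8 were not called.

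Summed per kilobase of exon, the 37 genes were at 3727, 3622 and 3574 CPM per kb in treated libraries, against 3998, 3958 and 3956 CPM per kb in DMSO libraries, a difference of -8.30%. It was -4.85% with upper-quartile scaling, and with total-count scaling the summed level was 0.168% higher in treated libraries and the groups overlapped. HSP90 made up 31.6% of the sum in treated and 31.8% in DMSO libraries, and the chaperonin 22.7% and 24.5%. The summed chaperonin level averaged 825 ± 22.0 CPM per kb in treated libraries and 973 ± 11.1 CPM per kb in DMSO libraries (SD, n = 3 each), and was lower with every scaling, by 7.37% with total counts. The heat shock factors (36.0% higher), BAG3 (30.8% higher) and the J-domain genes (8.65% higher) were higher with every scaling but are small parts of the sum. The lower sums of HSP70 (-13.0%), HSP90 (-8.90%) and small heat shock genes (-10.1%) did not overlap between groups with TMM, and overlapped with upper-quartile scaling.

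**Figure D4:**
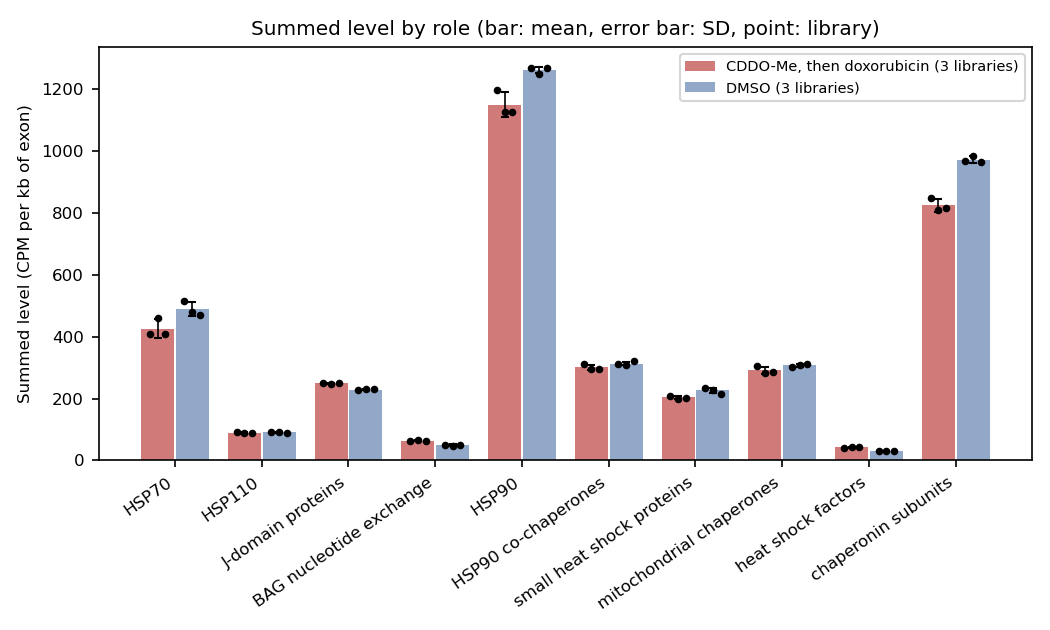
Summed level of each role in CPM per kb of exon (y axis), as bars (mean), error bars (SD) and points (libraries), treated in red to the left of DMSO in blue. The chaperonin and HSP90 sums are the largest, at 825 and 1150 CPM per kb in treated libraries and 973 and 1262 CPM per kb in DMSO libraries.

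Calls were also counted by level in DMSO libraries, with no test of the difference between ranges. Of the 12 members below 100 CPM in DMSO libraries, 9 rose and 2 fell, where 34.6% of all tested genes of that range rose and 25.6% fell. Of the 12 members at 100 to 400 CPM, 5 rose and 3 fell, with a median log2 change of 0.00404, where 21.9% of 2220 tested genes rose and 57.5% fell, with a median of -0.18. Of the 13 members above 400 CPM, 2 rose and 8 fell, where 14.2% of the 366 tested genes of that range rose and 71.6% fell. The median log2 change above 400 CPM was -0.20 for the members and -0.34 for all tested genes. These ranges were chosen after the values were seen.

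Further chaperone genes outside the 37 are given by list, to be read against the 32.3% of all tested genes that rose and the 31.2% that fell. Of 26 tested genes of the HSP70 system outside the 37, 9 rose and 10 fell (4 fell with total-count scaling), shares near those of all tested genes, with a median log2 change of -0.09. Among those called, the largest changes were in the divergent HSP70 gene HSPA12A (0.80), the ribosome-associated HSPA14 (-0.69) and the endosomal J-domain gene DNAJC13 (-0.56). Of 18 further HSP90 co-chaperone genes, 4 rose (7 with total-count scaling) and 7 fell, with a median of -0.10. TELO2 (-0.71) and RUVBL2 (-0.66), which work with HSP90 in assembling kinase and RNA polymerase complexes, fell, and TOMM34 (0.49), which guides mitochondrial precursors, rose.

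Among 12 genes of prefoldin, which hands clients to the chaperonin, and of other chaperonin partners, 1 rose (2 with upper-quartile and 4 with total-count scaling) and 5 fell, with a median of -0.04. The prefoldin subunit genes PFDN1 (-0.52) and PFDN4 (-0.35) and the phosducin-like gene PDCL3 (-0.34) had the largest called changes. Of 15 further mitochondrial chaperones and proteases, 6 rose and 6 fell, against 32.3% and 31.2% of all tested genes, with a median of -0.09. GRPEL2, a nucleotide exchange factor for mortalin, rose (0.93), and the disaggregase gene CLPB (-0.61) and the protease gene CLPP (-0.54) fell. Of 4 further small heat shock genes tested, HSPB6 (HSP20) fell, with a log2 change of -1.21, and the other 3 were not called, though with upper-quartile or total-count scaling 1 of the 4 rose. HSPB6 had 46 to 69 counts per treated library and 100 to 124 per DMSO library. Of its exon bases, 38.2% lie in exons of another annotated gene.

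Among 11 tested regulators of heat shock factors and heat shock targets that are not cytosolic chaperones, 5 rose and 1 fell, with a median of 0.12. CLU, the secreted chaperone clusterin, averaged 178 ± 8.68 CPM in treated libraries and 49.9 ± 2.52 CPM in DMSO libraries (SD, n = 3 each), a log2 change of 1.84 (SE 0.056). IER5, a p53 target known to activate HSF1, averaged 207 ± 6.16 CPM in treated libraries and 95.8 ± 6.99 CPM in DMSO libraries, a log2 change of 1.11 (SE 0.053). SERPINH1 (HSP47), the collagen chaperone of the endoplasmic reticulum, averaged 249.98 ± 7.89 CPM in treated libraries and 596 ± 15.2 CPM in DMSO libraries, and fell by 1.25 (SE 0.046). The fibroblast collagen markers COL1A1 and COL3A1 fell beside it, with log2 changes of -1.61 and -2.01, and their part in this result was not tested.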

How the data were processed

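The deposited file is a single table of counts, whole-number reads per Ensembl gene, with exon lengths. Per the submitters' processing notes, the authors used STAR, SAMtools, Subread and featureCounts with hg38 (GRCh38). Per the labels' protocols, libraries were unstranded and poly(A)-selected. For versions, annotation release and handling of multi-mapping reads, the sources used here give nothing. GENCODE 29 held 58179 of the 58299 identifiers.

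After filterByExpr (minimum count 10) and TMM scaling, 15575 genes were fitted in edgeR 4.0.16 (R 4.3.3), using glmQLFit with glmQLFTest, Benjamini-Hochberg adjusted at 0.05. The SE is the log2 change over the square root of F. Libraries held 17150259 to 20193957 counts. Pairs of replicates varied beyond counting noise (chi-square over degrees of freedom 3.00 to 4.01). Levels per kb divide CPM by exon length, which joins all annotated exons of a gene, so levels per kb of different genes are not strictly comparable.

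Alternatives were other scalings and filters, DESeq2 1.42.0, limma-voom (limma 3.58.1), a replicate block, each library left out, an adjusted p of 0.01, glmTreat, HSPA1A and HSPA1B summed, and members with over 50% exon overlap left out. All 37 members were named, and from each further list the 3 called genes with the largest change, with HSPB2, CDKN1A and HMOX1. Members, roles and lists were chosen with earlier results of these data known. The marker genes (COL1A1, COL3A1, TTN, TNNI3, TNNT2 and those of smooth muscle, endothelium and leukocytes) were named after their values were seen. Shared 50-base words were counted in GENCODE 29 transcripts. Motifs were searched on both strands of RefSeq promoter windows.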

Additional observations from a re-analysis of the deposited data

How the results depend on the processing

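Counts of genes rising and falling stayed within 1.5 times of 16 and 13 members, and of 9893 genes in all, under every alternative run except glmTreat against 1.5-fold, which called 4 members higher, 1 lower and 2993 genes in all. Leaving out 1 library gave 14 to 16 members higher, 13 to 14 lower and 9283 to 9695 genes in all. Total-count scaling gave 19 members higher and 10 lower and moved the median log2 change of all tested genes to 0.15, from 0.02 with TMM; 63.8% of calls were then higher, against 50.8%. Of 29 called members, 24 kept their call and direction under all alternatives other than glmTreat; the others are HSP90AB1, HSPB1, CCT6A, DNAJA1 and FKBP4. DNAJA1 was not called without a low-count filter (adjusted p = 0.102), and neither DNAJA1 nor FKBP4 at an adjusted p of 0.01.

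Signs changed for genes that were not called. With total-count scaling the log2 changes were 0.111 for DNAJB4 (edgeR adjusted p = 0.0497, a call), 0.0879 for HSP90AA1, 0.10 for AHSA1, 0.0681 for PTGES3, 0.0266 for HSPE1, 0.0578 for CCT7 and 0.10 for CCT8 (also a call). With upper-quartile scaling they were 0.0365 for DNAJB4, 0.0139 for HSP90AA1, 0.0243 for AHSA1 and 0.0265 for CCT8. With 1 library left out, DNAJB4 ranged from -0.0462 to 0.00596, above 0 without DMSO replicate 3, and TCP1 from -0.0183 to 0.0457, below 0 without treated replicate 1. The cause of these sign changes was not tested. The replicate block gave 16 members higher, 13 lower and 9653 genes in all, and changed no member's call. Same-numbered libraries did not deviate together (correlations of -0.10, -0.07 and -0.02), nor did differently numbered ones (-0.02 to 0.09). The labels do not say whether the numbers pair libraries, and with so few libraries a group these correlations cannot exclude it. No member had over 50% exon overlap, so leaving such members out changed nothing (16 and 13). With HSPA1A and HSPA1B summed, 15 features rose and 13 fell. Depth limits HSPA6, with 3 to 6 counts per DMSO library.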
